A study of Mus musculus with 14 samples.

Results

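Potassium channel genes were followed through brain maturation and through deletions of imprinting control regions in mouse brain. The members are the genes whose symbols consist of Kcn, a letter code and a number, and that reached 1 FPKM (a read level corrected for transcript length and library size) in 2 or more of 14 libraries. Of 92 such symbols in a table of 23375 genes, 75 reached that level, 2 of these were among 3 symbols left out by name, and 73 remained. They comprised 36 voltage-gated pore-forming genes, 8 genes of auxiliary subunits, 12 inward rectifiers, 8 two-pore channels, and 9 genes grouped as calcium- or sodium-activated channels including their auxiliary subunits. The last group was formed by symbol (Kcnma, Kcnmb, Kcnn, Kcnt and Kcnu), and activation by either ion was not checked for each gene. The members nearest the threshold were Kcnj5, whose second highest library stood at 1.03 FPKM, and Kcnk6 at 1.27 FPKM. Just outside it were Kcne4 at 0.977 FPKM and Kcnk15 at 0.778 FPKM in their second highest libraries.

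Potassium channels let potassium ions leave or, for some, enter a cell along the electrochemical gradient, and so set the resting potential and end action potentials. Voltage-gated members open on depolarisation and differ in speed and in their place on the neuron. Inward rectifiers pass current best near rest, and one of them in astrocytes takes up potassium released by active neurons. Two-pore channels carry a steady leak current, and calcium- and sodium-activated channels couple firing to the ions that entered during it. As the rodent brain matures, neurons gain faster repolarisation and glia gain potassium uptake.

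Poly(A) RNA of samples labelled as brain, with no region named, came from mice made with haploid embryonic stem cells that carried deletions of differentially methylated regions (DMRs), the methylation-marked switches of imprinted gene clusters. Adult KO2 and E19.5 KO2 brains carried deletions of the H19-DMR and the IG-DMR. Adult KO3 brains carried deletions of the H19-DMR, the IG-DMR and the Rasgrf1-DMR. E19.5 KO7 brains carried deletions of the DMRs named Gnas, Peg3, Kcnq1, Snrpn, Igf2r, Grb10 and Nespas. Wild-type brains were adult, in a set 1 and a set 2 by their titles, or E19.5, an embryonic day just before birth. Each of the 7 groups held 2 libraries. Adult age, strain and the number of clones or animals per group are not stated in the labels, so p-values measure the spread between these libraries, which may be technical. Other features of the way the animals were made, such as the parental origin of their genomes, cannot be told apart from the deletions.

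Several features of the libraries touch the channel genes. Both E19.5 KO7 libraries carried Y-linked transcripts and next to no Xist, the RNA of the inactive X, whereas both E19.5 wild-type libraries had Xist above 100 FPKM and no Y-linked signal. Among E19.5 KO2 libraries, Xist was 1.498 FPKM in replicate 1 and 84.0 FPKM in replicate 2, with next to no Y-linked signal in either. In the 4 libraries of adult KO3 and wild-type set 2, 9994 genes were listed at 0 throughout, of which 6396 had a value elsewhere, and no gene's highest value above 0 lay under 1.02 FPKM, so a gene listed at 0 there cannot be told from one with a low value. The members Kcnh6, Kcnh8, Kcnj5, Kcnmb2 and Kcnu1 are among those listed at 0. Adult KO3 was therefore set against wild-type set 2 and adult KO2 against set 1. Markers of cerebellar neurons also parted the adult libraries: their 8 genes summed to 548 and 680.0 FPKM in adult KO3 and 507 and 546 FPKM in set 2, against 73.6 and 100.1 FPKM in adult KO2 and 63.0 and 79.3 FPKM in set 1, where the granule cell gene Gabra6 was at 0. The defining markers of neurons and astrocytes were well above 0 in every library.

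The first comparison asked how channel genes differ between adult and E19.5 wild-type brain. Potassium channel genes were mostly higher in the adult brain: 46 of 73 were higher, 8 were lower and 19 did not pass the test (limma on log2(FPKM + 1), Benjamini-Hochberg adjusted p under 0.05 over 14322 tested genes, wild-type set 1 against E19.5). Among all tested genes the balance ran the other way, with 21.9% higher and 34.1% lower. The members' median log2 change was 0.85, against -0.15 over all tested genes. Their FPKM summed to 1333 and 1140 in the adult set 1 libraries (1356 and 1177 in set 2), against 559 and 567 in the E19.5 wild-type libraries. Inward rectifiers showed 10 higher and none lower of 12, two-pore genes 6 higher and 1 lower of 8, auxiliary subunits 6 higher and 1 lower of 8, and voltage-gated genes 22 higher and 4 lower of 36. Calcium- and sodium-activated genes showed 2 higher and 2 lower of 9. Scaling by median of ratios moved the median of all tested genes by 0.12, and against that median as deposited the members stood 1.00 higher on the log2 scale. In the accounts of single genes that follow, adult brain means wild-type set 1.

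**Figure D1:**
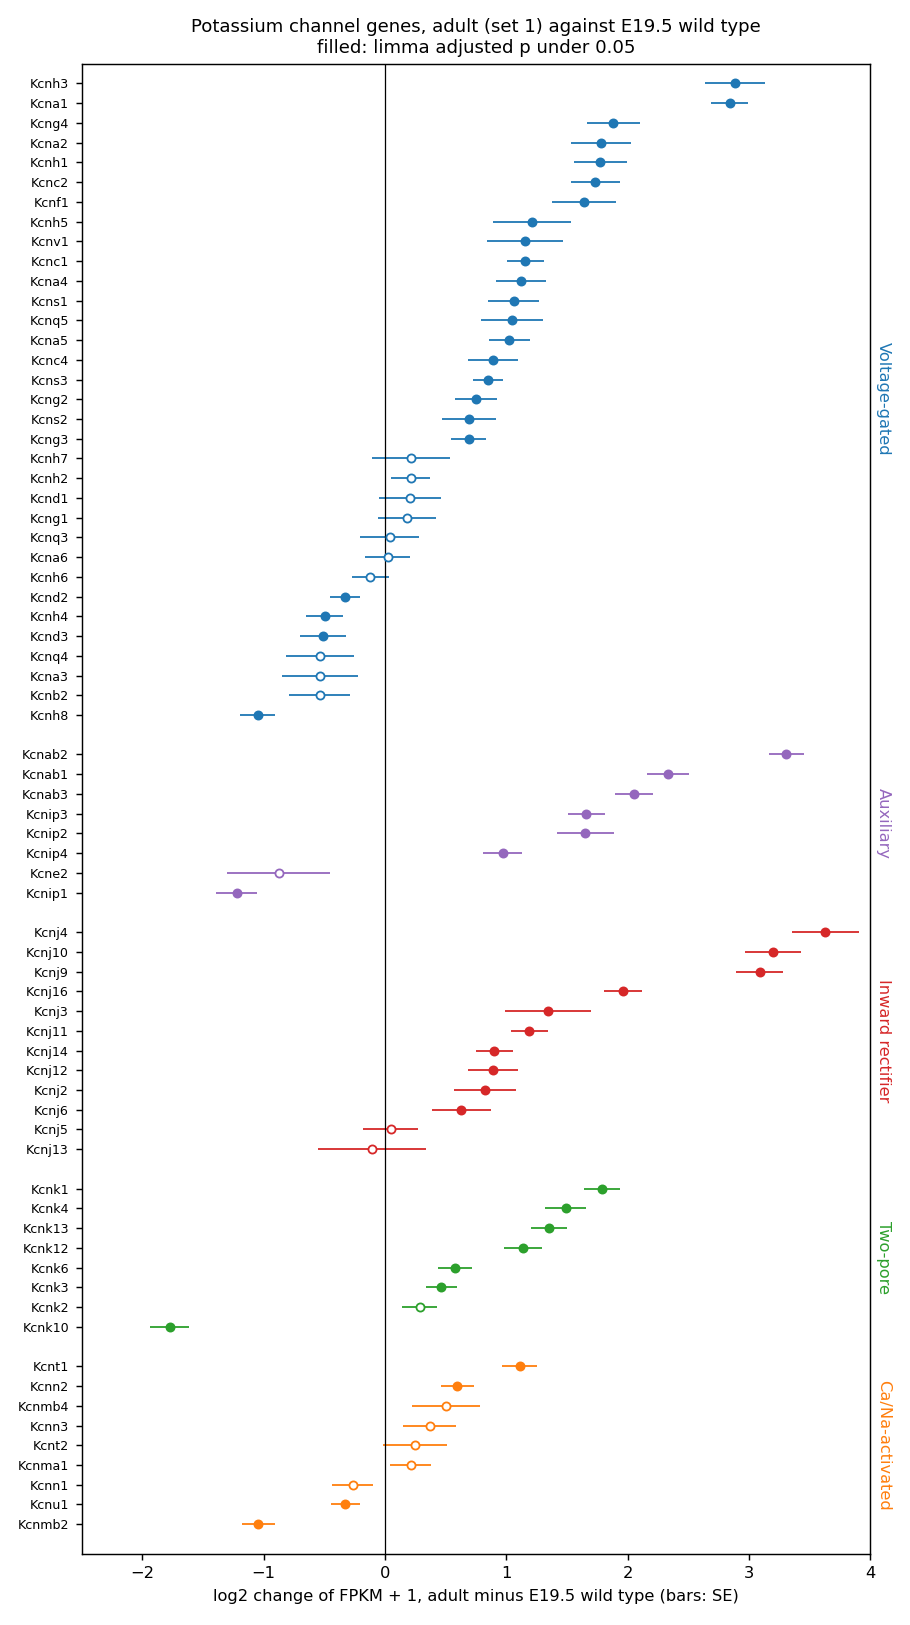
Log2 change of each potassium channel gene between adult wild-type set 1 and E19.5 wild-type brain on the log2(FPKM + 1) scale, by channel family, with bars for the SE, 3 members not drawn and filled points for genes that passed limma at an adjusted p under 0.05. Most points lie above 0, from -1.78 for Kcnk10 to 3.63 for Kcnj4, and calcium- and sodium-activated genes lie closest to 0.

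Markers of other cells moved between the stages as well. Of the marker lists, 9 of 10 astrocyte genes and 8 of 8 genes each of myelin and of microglia were higher in the adult brain, 7 of 8 genes of neural progenitors and cycling cells were lower, and 5 of 8 neuronal genes were higher and 2 lower. All 7 striatal and 3 of 6 oligodendrocyte precursor markers were higher. Interneuron markers (Pvalb, Gad1, Gad2, Lhx6, Tac1 and Sst) showed 4 higher and 1 lower of 6, and endothelial markers 2 higher and 1 lower of 7. Cerebellar markers showed 1 higher and 3 lower of 8, pericyte markers 1 higher and 3 lower of 6, and choroid plexus markers 1 higher and 2 lower of 8. Of meningeal markers 2 of 6 were lower, and no erythroid marker passed. Astrocyte markers summed to 1526 and 1472 FPKM in adult set 1, against 248 and 297 FPKM in E19.5 wild type. Neuronal markers summed to 2402 and 2149 FPKM in adult set 1, against 2735 and 2923 FPKM in E19.5 wild type. Their part in the channel genes' differences was not tested. In these bulk samples, fewer cells of a type and less RNA per cell cannot be told apart.

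Among voltage-gated genes the widest rise in adult set 1 was that of Kcnh3, a gene of the ether-à-go-go family with a channel found mainly in forebrain neurons. Kcnh3 stood at 61.6 and 37.9 FPKM in the adult libraries, against 7.02 and 4.56 FPKM in the E19.5 libraries (limma log2 change of 2.89 ± 0.25 (SE), adjusted p = 3.21e-06). Kcna1, a low-threshold channel of axons, stood at 20.7 and 18.4 FPKM in adult brain, against 2.05 and 1.69 FPKM at E19.5 (limma log2 change of 2.84 ± 0.15 (SE), adjusted p = 1.45e-07). Both E19.5 libraries lay far below both adult libraries for either gene. With set 2 in place of set 1 their order turned: Kcna1 was 3.65 higher than at E19.5 and Kcnh3 2.07 higher on the log2 scale. Kcna2, which joins Kcna1 in the same axonal channels, averaged 7.43 ± 0.652 FPKM in adult brain, against 1.45 ± 0.169 FPKM at E19.5 (SD, n = 2 each), a rise of 1.78 (limma adjusted p = 1.03e-04). The relatives Kcna4, an A-type channel, and Kcna5 rose by 1.12 and 1.03 on the log2 scale. Kcna6 and Kcna3 did not pass: Kcna6 had 16.8 and 19.2 FPKM in adult brain, against 16.0 and 19.4 FPKM at E19.5, and Kcna3, a channel also used by microglia and lymphocytes, had 6.28 and 7.82 FPKM in adult brain, against 10.5 and 10.8 FPKM at E19.5.

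Kcnc1, Kcnc2 and Kcnc4, of the Kcnc family, whose channels close fast enough for neurons to fire at high rates, rose. Kcnc2 averaged 17.9 ± 0.755 FPKM in adult brain, against 4.69 ± 0.235 FPKM at E19.5 (log2 change 1.73, limma adjusted p = 2.94e-05). Kcnc1 had 35.8 and 38.5 FPKM in adult brain, against 14.4 and 18.1 FPKM at E19.5 (limma log2 change of 1.16 ± 0.15 (SE), adjusted p = 7.14e-05). Kcnc4 rose by 0.89 on the log2 scale. Kcnb2, a delayed rectifier gene, had 1.60 and 1.38 FPKM in adult brain, against 2.78 and 2.45 FPKM at E19.5 and did not pass. Of the modifier genes, whose subunits form no channel alone and alter Kcnb channels, Kcng4 was near 0 at E19.5, with 3.05 and 3.54 FPKM in adult brain, against 0.0785 and 0.253 FPKM at E19.5 (log2 change 1.88, limma adjusted p = 2.62e-05).

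Kcnq3, a gene of the M-current that restrains repeated firing, had 15.6 and 13.9 FPKM in adult brain, against 14.8 and 13.7 FPKM at E19.5, so that its adult and E19.5 libraries overlapped (limma log2 change of 0.04 ± 0.24 (SE), adjusted p = 0.901). Kcnq5 rose by 1.05 on the log2 scale. In the ether-à-go-go family, Kcnh1 averaged 12.9 FPKM in adult brain, against 2.999 FPKM at E19.5 and rose by 1.78, while Kcnh2 and Kcnh7, whose channels shape the heart's and the neuron's return to rest, did not pass, with log2 changes of 0.21 and 0.21.

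The voltage-gated genes that fell in adult set 1 included the A-type channels of dendrites. Kcnd2 had 19.4 and 19.6 FPKM in adult set 1, against 22.6 and 27.1 FPKM at E19.5 (limma log2 change of -0.33 ± 0.13 (SE), adjusted p = 0.0447), and Kcnd3 had 12.5 and 16.0 FPKM in adult set 1, against 18.8 and 22.6 FPKM at E19.5 (limma log2 change of -0.51 ± 0.19 (SE), adjusted p = 0.0406). Both directions turned with the other adult set: against E19.5, Kcnd2 was 0.58 higher in set 2, where it stood at 38.7 and 36.3 FPKM, and Kcnd3 was 0.13 higher, at 24.9 and 20.6 FPKM. With both adult sets as 1 group, the change of Kcnd2 was 0.12. Kcnh4 fell by 0.50 and Kcnh8 fell by 1.05 on the log2 scale, Kcnh8 with 0.275 and 0.455 FPKM in adult set 1, against 1.90 and 1.74 FPKM at E19.5.

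Auxiliary subunits had the highest median log2 change of the 5 families, at 1.66. Kcnab2, a cytoplasmic subunit that binds Kcna channels and carries an oxidoreductase fold, was the most abundant member of all in adult brain, at 129 and 103 FPKM, against 9.85 and 11.7 FPKM at E19.5 (limma log2 change of 3.31 ± 0.14 (SE), adjusted p = 6.09e-08). Its relatives Kcnab1 and Kcnab3 rose by 2.33 and 2.05 on the log2 scale. The Kcnip genes, calcium sensors that bring Kcnd channels to the membrane, went both ways. Kcnip1 was the most abundant auxiliary gene at E19.5 and fell in adult brain, with 9.58 and 11.9 FPKM in adult brain, against 24.0 and 28.5 FPKM at E19.5 (limma log2 change of -1.22 ± 0.17 (SE), adjusted p = 9.95e-05). Kcnip2, Kcnip3 and Kcnip4 rose by 1.65, 1.66 and 0.97. Kcne2, a small subunit abundant in choroid plexus, did not pass, at 1.32 and 0.870 FPKM in adult brain, against 3.57 and 2.21 FPKM at E19.5.

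**Figure D2:**
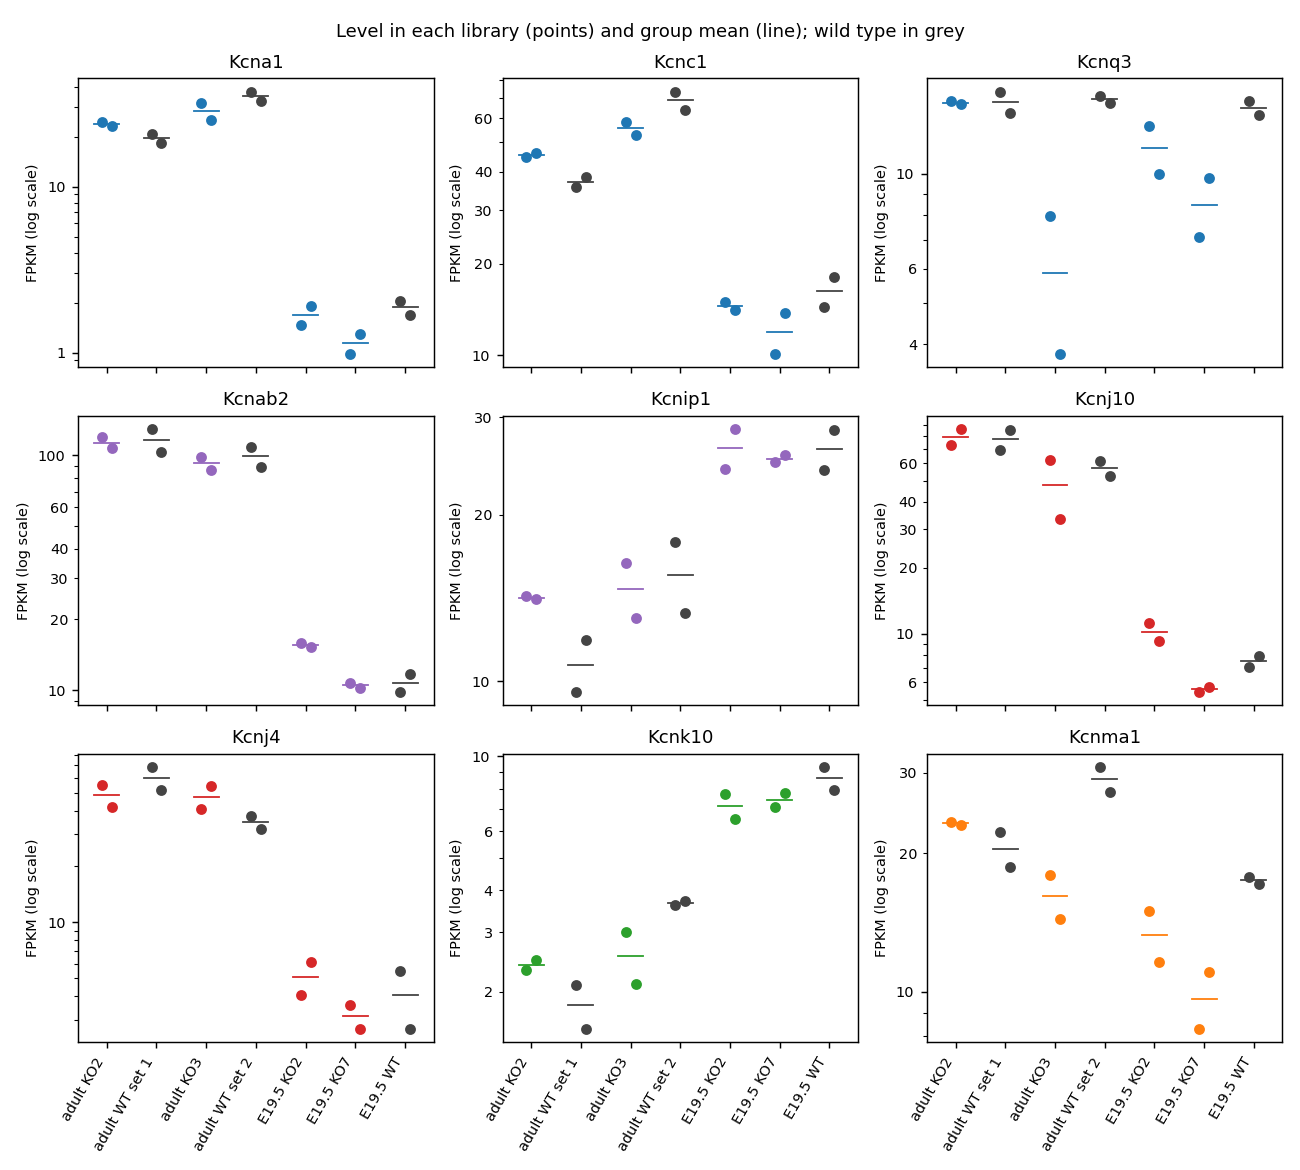
FPKM on a log axis of 9 potassium channel genes in each of the 14 libraries (points) with the group mean (line), knockouts in colour and wild type in grey. Kcna1, Kcnab2, Kcnj4 and Kcnj10 are separated between adult and E19.5 libraries, Kcnk10 and Kcnip1 run the other way, and Kcnc1 is higher in wild-type set 2 than in set 1.

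Of the inward rectifiers, 10 of 12 were higher in adult brain, with a median log2 change of 1.05. Kcnj4, a strong rectifier of forebrain neurons, had the largest rise of all members in set 1, with 68.7 and 51.3 FPKM in adult brain, against 5.45 and 2.68 FPKM at E19.5 (limma log2 change of 3.63 ± 0.28 (SE), adjusted p = 1.40e-06). With set 2 in place of set 1 its change from E19.5 was 2.87, below that of Kcna1 at 3.65. Kcnj10, the potassium uptake channel of astrocytes, had 69.1 and 85.5 FPKM in adult brain, against 7.07 and 7.91 FPKM at E19.5 (limma log2 change of 3.20 ± 0.23 (SE), adjusted p = 1.05e-06). Kcnj16, which assembles with Kcnj10, averaged 9.05 ± 0.937 FPKM in adult brain, against 1.58 ± 0.206 FPKM at E19.5 and rose by 1.96 (limma adjusted p = 2.00e-06). The G-protein-gated genes, whose channels slow neurons when inhibitory transmitters act, rose unequally in size: Kcnj9 by 3.09, Kcnj3 by 1.34 and Kcnj6 by 0.63. Kcnj9 averaged 39.7 FPKM in adult brain, against 3.74 FPKM at E19.5, whereas Kcnj3 averaged 23.9 FPKM in adult brain, against 8.70 FPKM at E19.5. Kcnj11, the pore of the ATP-sensitive channel, rose by 1.19. Kcnj13, known from choroid plexus epithelium, did not pass, at 2.64 and 2.04 FPKM in adult brain, against 3.09 and 2.14 FPKM at E19.5. With set 2 in place of set 1, Kcnj13 passed as higher (limma log2 change of 1.17, adjusted p = 0.0388).

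Two-pore genes rose, with Kcnk10 and Kcnk2 as exceptions. Kcnk1 was the most abundant in adult brain, with 45.2 and 33.6 FPKM, against 10.5 and 10.6 FPKM at E19.5 (limma log2 change of 1.79 ± 0.15 (SE), adjusted p = 2.95e-06). Kcnk13, a leak channel of microglia, averaged 3.79 ± 0.352 FPKM in adult brain, against 0.869 ± 0.0873 FPKM at E19.5 and rose by 1.36. Kcnk4, a mechanically gated leak channel, rose by 1.49 and Kcnk3, an acid-sensitive one, by 0.47. Kcnk10, a TREK channel opened by stretch and lipids, had the largest fall of all members in set 1, with 2.09 and 1.54 FPKM in adult brain, against 9.31 and 7.94 FPKM at E19.5 (limma log2 change of -1.78 ± 0.16 (SE), adjusted p = 5.01e-06). With set 2 in place of set 1 its change was -1.04. Among members not listed at 0 in set 2, Kcnh4 then stood lowest, at -1.33. Kcnk2, the closest relative of Kcnk10, had 23.9 and 23.1 FPKM in adult brain, against 19.8 and 18.3 FPKM at E19.5 and did not pass (limma log2 change of 0.29 ± 0.15 (SE), adjusted p = 0.112). With set 2 in place of set 1 the direction of Kcnk2 turned and it passed as lower (limma log2 change of -0.42, adjusted p = 0.0252).

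Calcium- and sodium-activated genes had the lowest median log2 change between the stages, at 0.25. Kcnt1, the sodium-activated channel, averaged 31.6 ± 1.90 FPKM in adult brain, against 14.1 ± 0.492 FPKM at E19.5 and rose by 1.11 (limma adjusted p = 6.11e-05), and Kcnn2, a small-conductance calcium-activated channel, rose by 0.60. Kcnma1, the large-conductance calcium-activated pore, had 22.3 and 18.6 FPKM in adult brain, against 17.8 and 17.2 FPKM at E19.5 (limma log2 change of 0.21 ± 0.17 (SE), adjusted p = 0.304). With set 2 in place of set 1, Kcnma1 was higher than at E19.5 (limma log2 change of 0.70, adjusted p = 0.00379). Its neuronal subunit Kcnmb4 was already the most abundant member of the family at E19.5, with 109 and 68.7 FPKM in adult brain, against 70.1 and 53.1 FPKM at E19.5. The subunit Kcnmb2 fell by 1.04, with 0.584 and 0.727 FPKM in adult set 1, against 2.59 and 2.24 FPKM at E19.5. Kcnn1 and Kcnn3 did not pass. With set 2 in place of set 1, Kcnn1 passed as lower (limma log2 change of -0.76, adjusted p = 0.00251) and Kcnn3 again did not pass.

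The promoters of the genes at both ends of this range are shown to set promoters of members that rose beside those of members that fell. RefSeq windows on GRCm38.p6, from 250 bases before to 50 bases after a gene's start, were at hand for 52 members (76 windows). Shown are the widest rises and falls among members with a single window, with each CG dinucleotide in capitals; Kcnj4 lies on the minus strand at chr15:79505192-79505491, and the others on the plus strand, Kcnj10 at chr1:172340960-172341259, Kcnh8 at chr17:52602459-52602758 and Kcnmb2 at chr3:31902453-31902752.
Kcnj4: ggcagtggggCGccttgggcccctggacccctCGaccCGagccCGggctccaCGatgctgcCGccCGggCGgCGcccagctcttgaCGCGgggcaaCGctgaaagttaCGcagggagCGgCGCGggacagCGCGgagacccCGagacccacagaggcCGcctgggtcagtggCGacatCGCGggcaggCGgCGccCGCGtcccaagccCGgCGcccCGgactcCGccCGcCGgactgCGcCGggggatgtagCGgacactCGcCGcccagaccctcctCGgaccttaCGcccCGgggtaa
Kcnj10: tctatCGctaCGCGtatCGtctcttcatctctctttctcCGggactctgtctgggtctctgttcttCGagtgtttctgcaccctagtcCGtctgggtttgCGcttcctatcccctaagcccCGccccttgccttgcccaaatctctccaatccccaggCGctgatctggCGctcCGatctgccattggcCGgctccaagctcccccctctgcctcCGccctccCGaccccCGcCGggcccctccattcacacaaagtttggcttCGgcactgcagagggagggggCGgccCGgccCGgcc
Kcnh8: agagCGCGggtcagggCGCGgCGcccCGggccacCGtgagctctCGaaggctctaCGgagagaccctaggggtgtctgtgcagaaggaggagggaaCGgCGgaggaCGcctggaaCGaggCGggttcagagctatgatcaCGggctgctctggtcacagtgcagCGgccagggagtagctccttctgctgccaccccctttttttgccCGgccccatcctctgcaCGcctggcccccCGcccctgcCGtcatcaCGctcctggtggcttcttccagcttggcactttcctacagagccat
Kcnmb2: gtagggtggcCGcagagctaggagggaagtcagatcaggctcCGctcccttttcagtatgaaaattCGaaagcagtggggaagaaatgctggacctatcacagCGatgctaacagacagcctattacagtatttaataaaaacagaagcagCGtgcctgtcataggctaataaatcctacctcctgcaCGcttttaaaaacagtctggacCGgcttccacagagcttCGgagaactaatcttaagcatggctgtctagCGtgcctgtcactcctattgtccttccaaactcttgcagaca
Each is written 5′ to 3′ as the table gives it. The Kcnj4 window held 41 CG dinucleotides, the Kcnj10 and Kcnh8 windows 21 each, and the Kcnmb2 window 9. The median over all member windows was 10, against 7 over 32851 windows of all genes. Windows of members higher in adult brain had a median of 8 and those of members lower in it had a median of 17, over 47 and 10 windows. The TATA letters TATAAA on either strand were in 5.26% of member windows, against 13.6% of all windows, and the GC-box letters GGGCGG on either strand in 51.3% of member windows, against 35.7% of all windows. TTCAGCACC, letters of the site of the neuronal repressor REST, was found on either strand in 1 of 76 member windows, against 0.371% of all windows. These letter matches are a description of the windows.

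The same stage comparison in KO2 brain gave 44 members higher and 6 lower in adult KO2 than in E19.5 KO2 (limma), where 20.7% of all tested genes were higher and 28.6% lower. Those higher were 9 of 12 inward rectifiers, 6 of 8 two-pore genes, 6 of 8 auxiliary genes, 21 of 36 voltage-gated genes and 2 of 9 calcium- and sodium-activated genes. Of the markers, 7 of 10 astrocyte genes and 8 of 8 genes each of myelin and of microglia were also higher in adult KO2, 7 of 8 progenitor and cycling genes were lower, and 4 of 8 neuronal genes were higher and 2 lower. Striatal markers showed 3 higher and 0 lower of 7, interneuron markers 3 higher and 1 lower of 6, and cerebellar markers 1 higher and 4 lower of 8. Endothelial markers showed 2 higher and 3 lower of 7, choroid plexus markers 2 higher and 1 lower of 8, and oligodendrocyte precursor markers 1 each way of 6. Lower were 3 of 6 pericyte, 3 of 6 meningeal and 2 of 6 erythroid markers. The part of the markers was not tested. Kcna1 had the largest change, with 24.5 and 23.2 FPKM in adult KO2, against 1.47 and 1.91 FPKM in E19.5 KO2 (limma log2 change of 3.21 ± 0.15 (SE), adjusted p = 1.45e-07). Kcnj10 had 72.7 and 85.9 FPKM in adult KO2, against 11.2 and 9.24 FPKM in E19.5 KO2, and Kcnk10 had 2.32 and 2.48 FPKM in adult KO2, against 7.76 and 6.51 FPKM in E19.5 KO2. Kcnma1 passed here, at 23.4 and 23.1 FPKM in adult KO2, against 15.0 and 11.6 FPKM in E19.5 KO2 (limma log2 change of 0.78 ± 0.17 (SE), adjusted p = 0.00272). In wild type Kcnma1 did not pass with set 1 and passed with set 2 (limma log2 change of 0.70, adjusted p = 0.00379). A test of the difference between the KO2 effects at the 2 stages passed for 0 of 73 members in limma, where 0.0628% of all tested genes passed. Its unadjusted p lay under 0.05 for 10 of 73 members, against 2118 of 14322 tested genes. Kcna5 was closest, with a difference (adult effect minus E19.5 effect) of -1.14 ± 0.24 (SE, limma adjusted p = 0.0784), followed by Kcnt1 at -0.86 (limma adjusted p = 0.117). Without adult KO3 replicate 1, and likewise without adult KO3 replicate 2, libraries that enter only the estimate of spread, 2 members passed as lower.

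At E19.5, KO2 brain differed from wild type in 1 of 73 channel genes. Kcna5, a delayed rectifier gene also used by vascular and immune cells, had 2.60 and 1.94 FPKM in E19.5 KO2, against 0.828 and 0.871 FPKM in E19.5 wild type (limma log2 change of 0.81 ± 0.17 (SE), adjusted p = 0.0437), while no member was lower. Among all tested genes 0.880% were higher and 0.398% lower. An unadjusted p under 0.05 was found for 8 of 73 members, against 2305 of 14322 tested genes. For Kcna5, both KO2 libraries lay above both wild-type libraries. The call of Kcna5 passed in 7 of 25 alternative settings, with a positive change in each of the 25. It was lost on leaving out any library of a group other than adult KO3. This held also for adult libraries, which enter only the estimate of spread. The next members by p were Kcnt1, with 20.8 and 22.5 FPKM in E19.5 KO2, against 13.7 and 14.4 FPKM in E19.5 wild type (limma adjusted p = 0.0809), and Kcnn2, with 10.7 and 10.5 FPKM in E19.5 KO2, against 7.33 and 6.999 FPKM in E19.5 wild type (limma adjusted p = 0.106). Of the members known from glia, none passed. Kcnj10 had 11.2 and 9.24 FPKM in E19.5 KO2, against 7.07 and 7.91 FPKM in wild type, and Kcnj16 had 2.93 and 2.62 FPKM in E19.5 KO2, against 1.43 and 1.73 FPKM in wild type. Kcnk13 of microglia had 0.871 and 0.902 FPKM in E19.5 KO2, against 0.931 and 0.807 FPKM in wild type, so that its libraries overlapped. The lowest p among members below wild type belonged to Kcnh8, with 1.43 and 0.830 FPKM in E19.5 KO2, against 1.90 and 1.74 FPKM in E19.5 wild type. Astrocyte markers summed to 554 and 515 FPKM in E19.5 KO2, against 248 and 297 FPKM in E19.5 wild type, with 1 of 10 passing as higher. Also higher were 3 of 8 myelin, 2 of 6 erythroid, 1 of 8 microglia and 1 of 7 endothelial markers. The part of these markers in the channel values was not tested.

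In E19.5 KO7 brain the channel genes lay mostly below wild type, and 2 passed the test. Kcnma1 had 8.28 and 11.02 FPKM in E19.5 KO7, against 17.8 and 17.2 FPKM in E19.5 wild type (limma log2 change of -0.81 ± 0.17 (SE), adjusted p = 0.0237). Kcnip4, a calcium-binding subunit of A-type channels, had 5.48 and 4.96 FPKM in E19.5 KO7, against 9.13 and 8.76 FPKM in E19.5 wild type (limma log2 change of -0.68 ± 0.16 (SE), adjusted p = 0.0386). For both genes the KO7 libraries lay below both wild-type libraries. No member was higher, and among all tested genes 3.02% were higher and 1.43% lower. At an unadjusted p under 0.05 were 15 of 73 members, against 3026 of 14322 tested genes. Of the 73 members, 58 had a negative log2 change, among them 31 of 36 voltage-gated and 8 of 9 calcium- and sodium-activated genes, against 7055 of 14322 tested genes. The members' median change was -0.19, against 0.0050 over all tested genes. By library, 53 members in replicate 1 and 54 in replicate 2 lay below the wild-type mean, with medians of -0.23 and -0.16, where 48.8% and 49.4% of all tested genes lay below it.

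Several other members lay below wild type in E19.5 KO7 without passing. Kcnd2, the partner of the Kcnip subunits, had 17.8 and 18.1 FPKM in E19.5 KO7, against 22.6 and 27.1 FPKM in E19.5 wild type (limma adjusted p = 0.0751). Kcnq3 had 7.13 and 9.80 FPKM in E19.5 KO7, against 14.8 and 13.7 FPKM in E19.5 wild type (limma adjusted p = 0.129). Kcnk4 averaged 1.01 ± 0.205 FPKM in E19.5 KO7, against 1.94 ± 0.0249 FPKM in E19.5 wild type (SD, n = 2 each). The smallest p above wild type belonged to Kcna5, with 1.44 and 1.26 FPKM in E19.5 KO7, against 0.828 and 0.871 FPKM in E19.5 wild type (limma adjusted p = 0.262), followed by Kcng2, a modifier gene. All 6 meningeal markers, 4 of 6 erythroid, 3 of 8 progenitor, 2 of 7 endothelial and 2 of 6 pericyte markers were higher in E19.5 KO7. So were 2 of 10 astrocyte, 1 of 8 myelin and 1 of 8 microglia markers, and none of 8 neuronal markers passed. Erythroid markers summed to 3009 and 2516 FPKM in E19.5 KO7, against 199 and 441 FPKM in E19.5 wild type. Neuronal markers summed to 3676 and 3125 FPKM in E19.5 KO7, against 2735 and 2923 FPKM in E19.5 wild type. By gene, 5 of the 8 had a negative and 3 a positive log2 change, with a median of -0.14, so the sum does not speak for most of the list. Sex and genotype cannot be told apart in this comparison, given the Y-linked signal of KO7 alone, and the part of the marker differences was not tested. Both E19.5 knockouts share the same 2 wild-type libraries.

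The E19.5 KO7 count depended on single libraries. Without KO7 replicate 1, wild-type replicate 1 or wild-type replicate 2 it was 0, and without KO7 replicate 2, one or the other E19.5 KO2 library, or one or the other adult set 1 library, it was 1. Without one or the other adult KO3 library it was 6. Kcnma1 passed in 20 and Kcnip4 in 13 of 25 alternative settings, with a negative change in each.

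**Figure D3:**
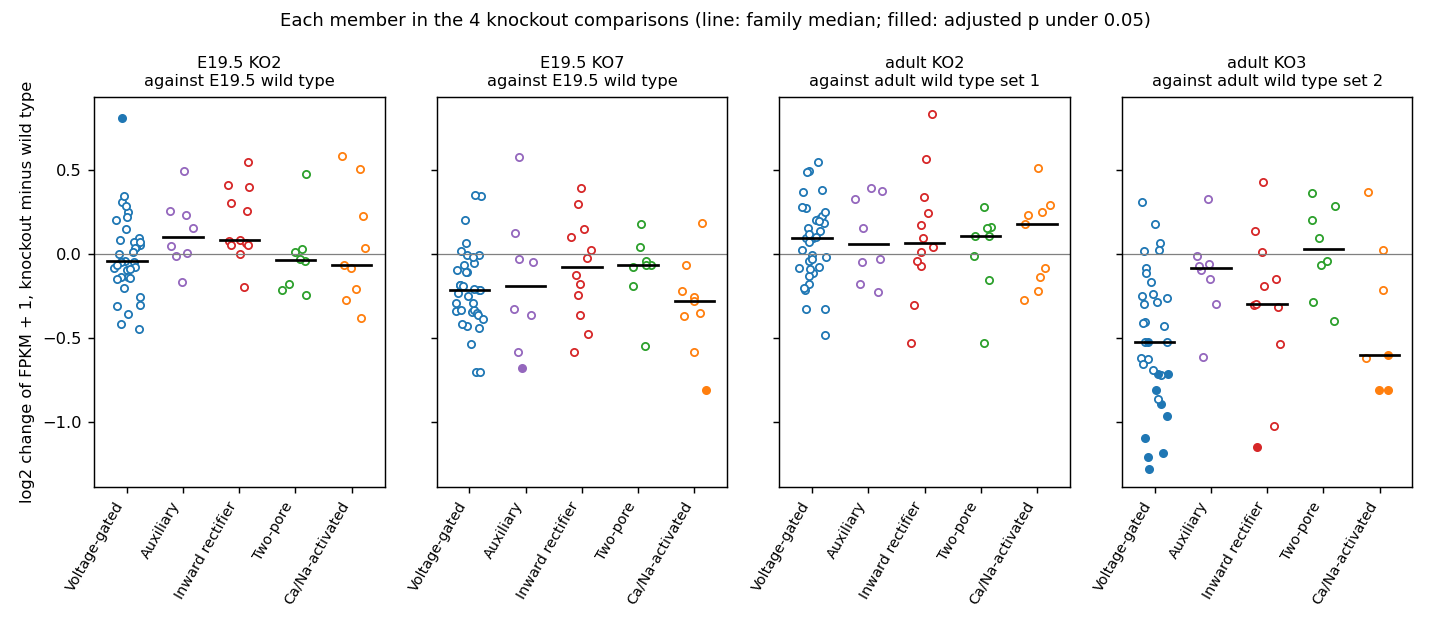
Log2 change of each potassium channel gene in the 4 knockout comparisons on the log2(FPKM + 1) scale, by channel family, with filled points for genes that passed limma at an adjusted p under 0.05. A line marks each family's median, and the 5 members listed at 0 are not drawn for adult KO3. The members lie on both sides of 0 in the KO2 comparisons, 41 of 73 above it in E19.5 KO2 (11 of 12 inward rectifiers among them) and 43 of 73 in adult KO2, and mostly below 0 in E19.5 KO7 and adult KO3.

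In adult KO2 brain no channel gene passed against wild-type set 1. In limma 0 of 73 members were higher and 0 lower, where 0.105% of all tested genes were higher and 0.0489% lower. At an unadjusted p under 0.05 were 12 of 73 members, against 1051 of 14322 tested genes. The smallest p above wild type belonged to Kcnn2, with 19.0 and 14.5 FPKM in adult KO2, against 11.6 and 11.1 FPKM in set 1 (limma log2 change of 0.51 ± 0.13 (SE), adjusted p = 0.297). The smallest p below it belonged to Kcnk2, with 14.4 and 17.7 FPKM in adult KO2, against 23.9 and 23.1 FPKM in set 1 (limma log2 change of -0.53 ± 0.15 (SE), adjusted p = 0.326), followed by Kcnj14, a strong rectifier gene, with 0.674 and 1.21 FPKM in adult KO2, against 1.75 and 1.81 FPKM in set 1. Kcna5, higher in E19.5 KO2, stood at 1.92 and 2.097 FPKM in adult KO2, against 2.46 and 3.11 FPKM in set 1 (limma log2 change of -0.33 ± 0.17 (SE), adjusted p = 0.733). Without adult KO2 replicate 2, 1 member was higher.

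One adult KO2 library stood apart in 2 epithelial members. Kcnj13 had 10.5 and 2.04 FPKM in adult KO2 replicates 1 and 2, against 2.64 and 2.04 FPKM in set 1, and Kcne2 had 3.19 and 0.280 FPKM in adult KO2, against 1.32 and 0.870 FPKM in set 1. The 8 choroid plexus markers summed to 1178 and 126 FPKM in the same adult KO2 libraries, against 345 and 173 FPKM in set 1. The 7 striatal markers summed to 163 and 303 FPKM in adult KO2, against 464 and 472 FPKM in set 1. None of the striatal markers passed in limma, and all 7 had an unadjusted p under 0.05, against 1051 of 14322 tested genes. Erythroid markers summed to 636 and 732 FPKM in adult KO2, against 83.4 and 372 FPKM in set 1, with 5 of 6 at that unadjusted level. Also at that level were 3 of 6 meningeal, 3 of 8 progenitor and cycling, and 2 of 6 interneuron markers. None of these passed after adjustment. The part of the marker lists in the members' values was not tested.

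In adult KO3 brain 14 channel genes were lower than in wild-type set 2 and none was higher (limma). Among all tested genes 8.20% were lower and 13.9% higher, and of the called genes 62.9% were higher as deposited, against 47.1% after quantile scaling. The 14 comprised 10 of 36 voltage-gated genes, 3 of 9 calcium- and sodium-activated genes and 1 of 12 inward rectifiers. An unadjusted p under 0.05 was found for 29 of 73 members, against 5636 of 14322 tested genes. The 5 members listed at 0 in all 4 libraries could not differ; of the other 68, 53 had a negative change, and among the 13345 tested genes not so listed 8.80% were lower and 14.9% higher. Kcnq3 had the largest change, with 7.97 and 3.80 FPKM in adult KO3, against 15.2 and 14.6 FPKM in set 2 (limma log2 change of -1.28 ± 0.24 (SE), adjusted p = 0.0111). Kcnma1 had 18.0 and 14.4 FPKM in adult KO3, against 30.9 and 27.2 FPKM in set 2 (limma log2 change of -0.81 ± 0.17 (SE), adjusted p = 0.0130). Both genes had both KO3 libraries below both set 2 libraries.

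Other genes lower in adult KO3 were spread over several roles. The G-protein-gated rectifier Kcnj6 had 8.43 and 6.10 FPKM in adult KO3, against 18.6 and 15.8 FPKM in set 2 (limma log2 change of -1.15 ± 0.24 (SE), adjusted p = 0.0138), and its partner Kcnj3, at 29.1 and 11.02 FPKM in adult KO3, against 43.9 and 32.4 FPKM in set 2, missed the threshold (limma adjusted p = 0.0576). Kcna2 had 6.22 and 2.74 FPKM in adult KO3, against 10.7 and 9.50 FPKM in set 2 (limma adjusted p = 0.0166), whereas its partner Kcna1 had 32.0 and 25.3 FPKM in adult KO3, against 37.4 and 32.7 FPKM in set 2 and did not pass. The modifier Kcng1 averaged 2.47 ± 1.38 FPKM in adult KO3, against 6.64 ± 1.31 FPKM in set 2 (limma adjusted p = 0.0124). Kcnh7, Kcna3, Kcnd1, Kcnt2, Kcns2, Kcnd3 and the sodium-activated Kcnt1 were also lower, with log2 changes between -1.21 and -0.60. Kcnc1, Kcnc2, Kcnc4, Kcnab2 and Kcnk1 did not pass; Kcnc1 had 58.4 and 52.9 FPKM in adult KO3, against 73.5 and 64.0 FPKM in set 2.

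The adult KO3 count depended on single libraries, and its replicate 2 lay further from wild type than its replicate 1. The members' median against the set 2 mean over the 68 members not listed at 0 was -0.16 in KO3 replicate 1, with 48 below, and -0.46 in replicate 2, with 55 below, where 45.9% and 54.3% of the tested genes not listed at 0 lay below. Pearson's r between both KO3 libraries across tested genes, which are not independent, was 0.964, against 0.979 to 0.983 within the other groups. Without KO3 replicate 2 the count of lower members was 1, without KO3 replicate 1 it was 33, without set 2 replicate 1 it was 0 and without set 2 replicate 2 it was 4. It was 9 without any one library of KO2 at either stage or of E19.5 wild type, and 0 with no filter on low values or with only the adult libraries in the fit. The 6 interneuron markers (Pvalb, Gad1, Gad2, Lhx6, Tac1 and Sst) summed to 815 and 1373 FPKM in adult KO3, against 589 and 613 FPKM in set 2. Erythroid markers summed to 648 and 1038 FPKM in adult KO3, against 176 and 115 FPKM in set 2. Of the 6 genes of each of these lists 2 were higher. Neuronal markers showed 2 higher and 1 lower of 8 and summed to 2634 and 2722 FPKM in adult KO3, against 2465 and 2285 FPKM in set 2. Of the other lists, 2 of 10 astrocyte, 2 of 8 microglia and 1 of 7 endothelial markers were higher, 1 of 6 pericyte and 1 of 7 striatal markers were lower, and none of 8 cerebellar markers passed. The part of the markers in the members' values was not tested.

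**Figure D4:**
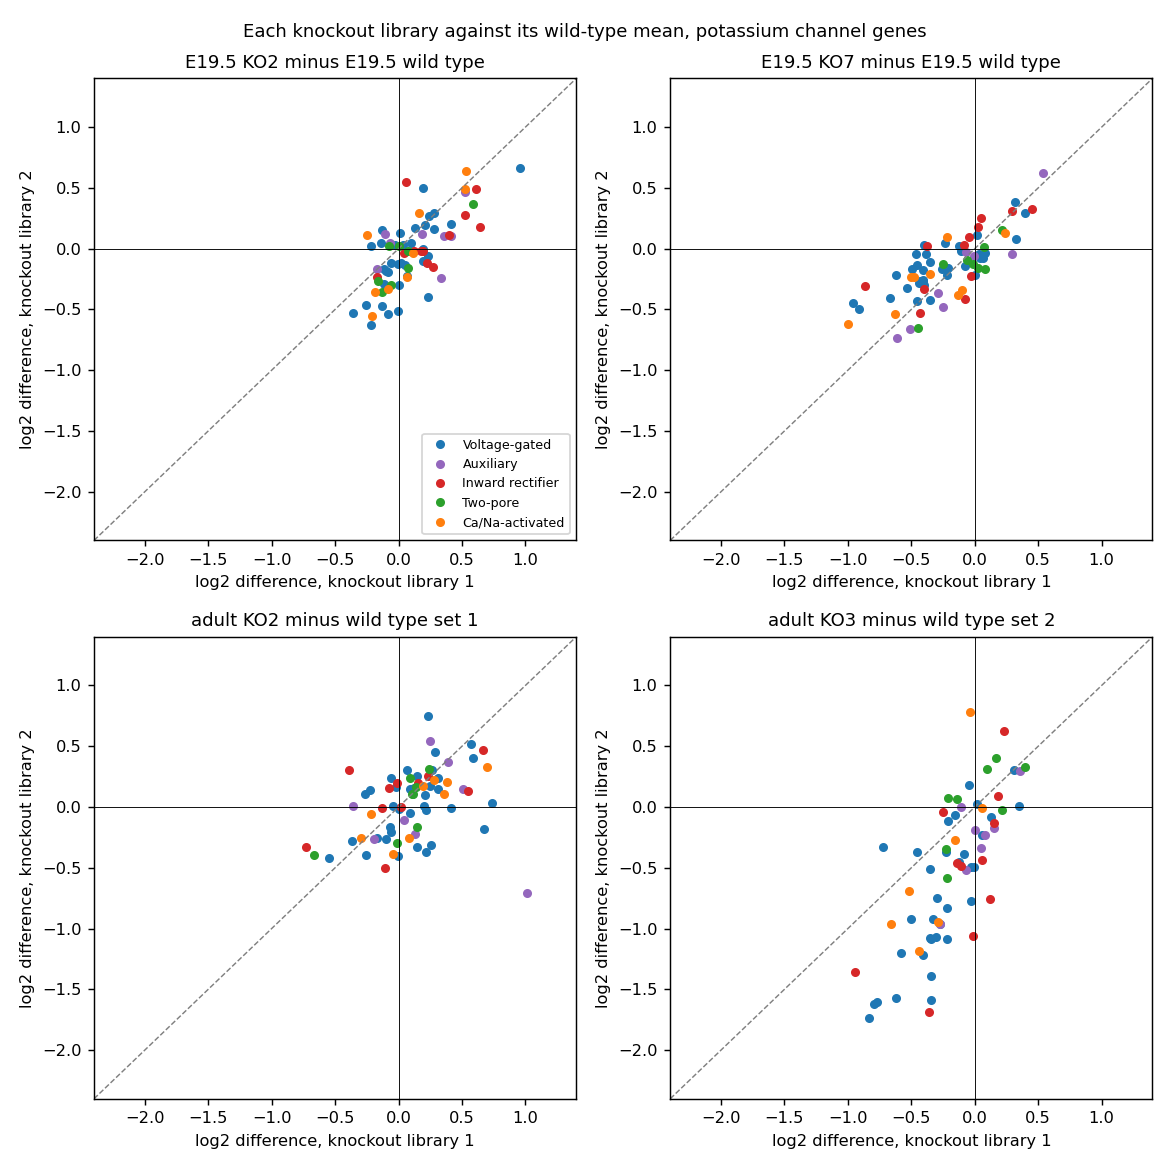
Log2 difference of each potassium channel gene from the mean of its wild-type group on the log2(FPKM + 1) scale, in knockout library 1 (horizontal) and library 2 (vertical), 1 panel per knockout group and 1 point per gene, with members listed at 0 not drawn for adult KO3. In adult KO3 most points lie below the dashed line of equal differences, with medians of -0.16 in library 1 and -0.46 in library 2, and in E19.5 KO7 most points lie below 0 in both libraries, with medians of -0.23 and -0.16.

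The adult wild-type sets themselves differed in 16 of the 68 channel genes not listed at 0 in set 2, a comparison added after the data were seen whose genes were chosen after their values were seen. Relative to set 1, 11 of these members were higher and 5 lower in set 2 (limma), where 7.34% of the tested genes not so listed were higher and 9.75% lower. The 5 members listed at 0 in set 2 had means between 0.365 and 0.959 FPKM in set 1, under the 1.02 FPKM given above, so their fitted difference does not show a change and they are left out of this count. Over all tested genes 20.9% passed in either direction, and of the called genes 32.8% were higher as deposited, against 52.6% after quantile scaling. Kcnc1 had 73.5 and 64.0 FPKM in set 2, against 35.8 and 38.5 FPKM in set 1 (limma log2 change of 0.87 ± 0.15 (SE), adjusted p = 0.00293), and Kcng4 had 13.7 and 10.3 FPKM in set 2, against 3.05 and 3.54 FPKM in set 1. Kcna1, Kcnd2, Kcnd3, Kcnip4, Kcnj12, Kcnk3, Kcnk10 and Kcnk12 were also higher in set 2. Kcnh3, Kcnh4, Kcnk2, Kcnk4 and Kcns1 were lower. Kcnk2 had 13.3 and 14.6 FPKM in set 2, against 23.9 and 23.1 FPKM in set 1 (limma log2 change of -0.71 ± 0.15 (SE), adjusted p = 0.00653). All 8 cerebellar and 2 of 6 interneuron markers were higher in set 2. Lower in set 2 were 5 of 8 microglia, 4 of 6 oligodendrocyte precursor, 3 of 6 meningeal, 2 of 10 astrocyte, 2 of 7 striatal and 1 of 8 myelin markers, while progenitor and cycling markers showed 2 higher and 3 lower of 8, with 4 listed at 0 in set 2. Their part in the members' values was not tested. Without set 1 replicate 2 the higher count was 7. The lower count was 2 without set 1 replicate 1 or without set 2 replicate 2, and 9 without one or the other adult KO3 library.

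**Figure D5:**
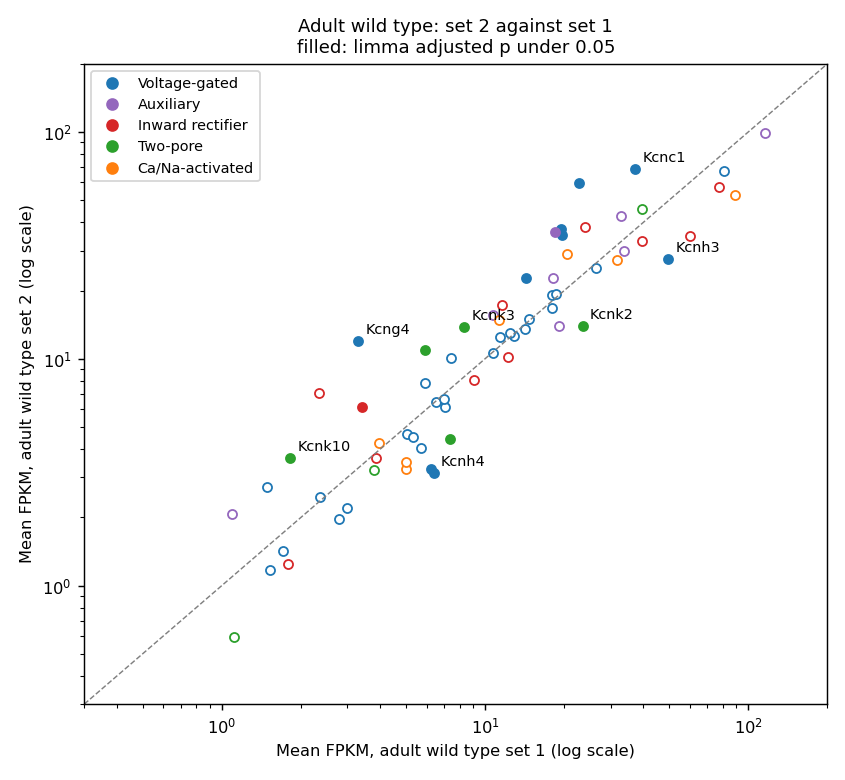
Mean FPKM of each potassium channel gene in adult wild-type set 2 (vertical) and set 1 (horizontal), both on log axes, with filled points for genes that passed limma at an adjusted p under 0.05; the 5 members listed at 0 in set 2 are not drawn. Kcng4 and Kcnc1 lie above the diagonal, and Kcnh4, Kcnh3 and Kcnk2 lie below it.

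Of 24 listed genes whose products bind or traffic potassium channels, 22 were tested. In adult wild-type set 1 against E19.5 wild type, 8 were higher and 5 lower (limma), against 21.9% and 34.1% of all tested genes. Dlg1, a scaffold protein of synapses, averaged 31.6 FPKM in adult brain, against 9.20 FPKM at E19.5, and Amigo1, a cell adhesion subunit of delayed rectifier channels, averaged 19.4 FPKM in adult brain, against 8.23 FPKM at E19.5. Cntnap2, which holds Kcna channels beside the nodes of axons, was lower, at 16.3 FPKM in adult brain, against 27.0 FPKM at E19.5. Abcc8, the sulfonylurea receptor that joins Kcnj11, rose by 0.60, and Abcc9, its vascular counterpart, fell by 0.64 on the log2 scale. In E19.5 KO7, where 3.02% of all tested genes were higher and 1.43% lower, none was higher and 2 were lower than in wild type: Adam22, a receptor at Kcna channel complexes, and Lrrc26, an auxiliary subunit of the Kcnma1 channel, which averaged 0.596 FPKM in E19.5 KO7, against 2.78 FPKM in E19.5 wild type (limma adjusted p = 0.00541). In adult KO3, where 13.9% of all tested genes were higher and 8.20% lower, none was higher and 5 were lower than in set 2, namely Dlg2, Dpp6, Adam22, Abcc8 and Lrrc26. No partner passed in limma in either KO2 comparison. At an unadjusted p under 0.05 were 0 of 22 in E19.5 KO2, against 2305 of 14322 tested genes. In adult KO2 they were 2 of 22, against 1051 of 14322 tested genes.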

How the data were processed

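Poly(A) RNA-seq of 14 mouse brain libraries was analysed from 1 table of FPKM values deposited by the authors. Per the submitters' processing notes, the mm9 build, Cufflinks 2.2.1, TopHat2 2.1.1 and CASAVA were used, in no stated role or order. Strand use, filters and scaling are not given in these sources. A second header row reads FPKM for 10 libraries; the other 4 (adult KO3 and wild-type set 2) were taken as FPKM. Depth is unknown, so no counting interval was computed; each library reached 1 FPKM in 12701 to 13398 genes. Paralogs and overlapping genes may share reads.

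Genes with at least 1 FPKM in 2 libraries (14322 of 23375; 2 entries naming no gene were left out) were transformed to log2(FPKM + 1), which understates changes of low genes. The means of 7 groups, taken from the sample titles, were compared in limma 3.58.1 under R 4.3.3 (2-sided, with the trend option and 7 residual degrees of freedom), with Benjamini-Hochberg adjustment over all tested genes and a threshold of 0.05. Pairs of libraries of a group shared at most 1 identical value and were counted as 2 replicates. Members, gene lists and the rule for named genes (all called in a knockout comparison, the largest stage changes, the smallest p and the most abundant of each family, and well known brain channels) were chosen with earlier results of these data known. Results of 3 members enter the counts and are not reported here by name. Alternatives covered pseudocounts, filters, scalings, fewer groups, a replicate block and leaving out each library.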

Additional observations from a re-analysis of the deposited data

How the results depend on the processing

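Of 54 members called between adult wild-type set 1 and E19.5 wild type, 39 passed in every setting tried, and 39 of 50 did so in KO2; no call in a knockout comparison did. Kcnd2 reversed with set 2 in place of set 1 (0.58) and with both sets as 1 group (0.12), and Kcnd3 reversed with set 2 (0.13). The cause was not tested. The count lower in adult set 1 was 5 at 5 FPKM in 2 libraries, where 56 members remained, and 5 under median-of-ratios scaling. For E19.5 KO2 the count higher was 0 with a pseudocount of 10, with no filter, at 5 FPKM, with both sets as 1 group and without the 3 libraries apart (replicate 2 of adult KO3, replicate 2 of set 2 and replicate 1 of E19.5 KO2), and 2 under either scaling and with only the 10 libraries other than adult KO3 and set 2. For E19.5 KO7 the count lower was 1 with a pseudocount of 10, 0 with no filter or both sets as 1 group, 5 with E19.5 libraries only or without the 3 libraries, and 6 with the 10 libraries. For adult KO3 the count lower was 0 with no filter, with adult libraries only and without the 3 libraries, and the count higher was 1 under quantile scaling. For adult KO2 against E19.5 KO2 the count lower was 3 with both sets as 1 group. The stage difference of the KO2 effect had 2 members lower under quantile scaling, with only the groups compared and with the 10 libraries. Between the wild-type sets the count lower in set 2, over members not listed at 0 there, was 2 with adult libraries only or without the 3 libraries.

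Leaving out 1 library at a time gave 38 to 46 higher and 4 to 9 lower in adult wild type (5 without one or the other set 1 library, 4 without E19.5 wild-type replicate 2), and 38 to 48 higher and 3 to 7 lower in adult KO2 against E19.5 KO2 (3 without E19.5 KO2 replicate 1). It gave 0 to 3 higher and 0 lower in E19.5 KO2, 0 higher and 0 to 6 lower in E19.5 KO7, 0 to 1 higher and 0 lower in adult KO2, 0 to 1 higher and 0 to 33 lower in adult KO3, and 0 higher and 0 to 2 lower in the stage difference of the KO2 effect. Between the wild-type sets it gave 7 to 15 higher and 2 to 9 lower. A group left with 1 library is assumed to vary like the others. With the replicate number as a block, the count higher in E19.5 KO2 was 0 and the count lower in E19.5 KO7 was 1, and counts in the other comparisons stayed within 1.5 times. Deviations of replicate 1 from its group mean correlated across genes at -0.163 to 0.233 between the groups compared. With 2 libraries per group these values cannot decide whether the replicate numbers mark a pairing. A crossed pairing in E19.5 KO2, added after seeing the data, gave 0 higher. With 2 libraries per group and unknown depth, members near 1 FPKM are the least certain.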
